A study of Homo sapiens with 95 samples.

Results

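Benzo(a)pyrene (BaP), a polycyclic aromatic hydrocarbon formed when tobacco burns, was compared with its solvent DMSO over every genotype of the study. The comparison took all 24 BaP samples and all 24 DMSO samples, 48 of the 95 samples in the series, and chose them by the treatment label alone. The cells were AALE, a human bronchial epithelial line made to divide indefinitely, profiled by sparse full length (SFL) sequencing, a highly multiplexed RNA-seq method in which barcoded samples share 1 sequencing pool. BaP was given at 173 µM, and the length of exposure is not given in the sources used here.

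Each treatment was applied to the same 8 lines, with 3 samples per line and treatment. CRISPR knockouts of CDKN2A and of FAT1 had GFP cells, which received the plasmid without a guide RNA, as their control. Overexpression lines of NRF2, FGFR1, NRG1 and PIK3CA had the HCRED vector as their control. Every line was derived from the same immortalized parent, and whether a knockout line was 1 clone is not given. Replicate samples were deposited as separate libraries, and the p-values measure only the spread between them. In the 48 libraries the perturbed gene of each of the 6 lines was separated from the 6 libraries of its control without overlap. FAT1 and CDKN2A were lower, and NFE2L2 (the gene of NRF2), FGFR1, NRG1 and PIK3CA were higher in their own lines. The knockouts kept reads of the targeted gene, which counting over a whole gene allows.

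Polycyclic aromatic hydrocarbons bind the aryl hydrocarbon receptor (AhR), a transcription factor that waits in the cytoplasm with HSP90. The bound receptor enters the nucleus, pairs with ARNT and occupies short DNA elements whose core is GCGTG, near genes of xenobiotic metabolism. The enzymes it induces oxidize the hydrocarbon into reactive products, and a feedback arm (AHRR and TIPARP) limits the receptor. The reactive products are known to damage DNA and to activate NRF2, the regulator of antioxidant genes.

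The counted depth was lower in BaP libraries, with a mean of 870730 ± 388336 (SD, n = 24) reads against 1071913 ± 189211 (SD, n = 24) for DMSO. The difference had p = 0.039 in a 2-sided permutation test within genotype (100000 resamples), with BaP lower in 6 of the 8 lines. The range was 287446 to 1641129 reads for BaP and 694898 to 1528287 for DMSO, and 10 BaP libraries held fewer reads than the smallest DMSO library. Markers of ciliated and secretory airway cells were too low to test (0 of 8 had a mean count above 1). Of 11 markers of fibroblasts, endothelial cells and leukocytes, COL1A1 and DCN were tested and the other 9 were below the filter. In bulk libraries, fewer cells of a type and less RNA per cell cannot be told apart.

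Of the 14392 genes with a mean count above 1, limma-voom called 7402 (51.4%) at an adjusted p under 0.05. BaP was higher for 3794 genes (26.4%) and lower for 3608 (25.1%), with a median log2 fold change of 0.01 over all genes tested. Changes over 2-fold were far fewer and mostly rises. They comprised 141 genes that rose (0.98% of those tested) and 20 that fell (0.139%), of which 114 kept their direction in all 8 lines. The number of falls moved with the fit, to 52 by edgeR's quasi-likelihood test, 55 by DESeq2, 46 without the 10 small BaP libraries, 71 in the GFP and HCRED lines alone and 12 with a replicate block within genotype. Only 8 tested genes (0.0556%) had log2 CPM ranges that did not overlap between the 24 BaP and the 24 DMSO libraries, all of them higher under BaP. These were CYP1A1, CYP1B1, TIPARP, DHRS3, TPRA1, MAFG, PLXNA3 and RPPH1, the RNA component of RNase P, and they are named because of this separation. DHRS3, a retinaldehyde reductase, rose by 1.39 on the log2 scale, and MAFG, a small Maf partner of NRF2, rose by 0.94. With the GC trend described next removed, these values were 1.14 and 0.61.

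**Figure D1:**
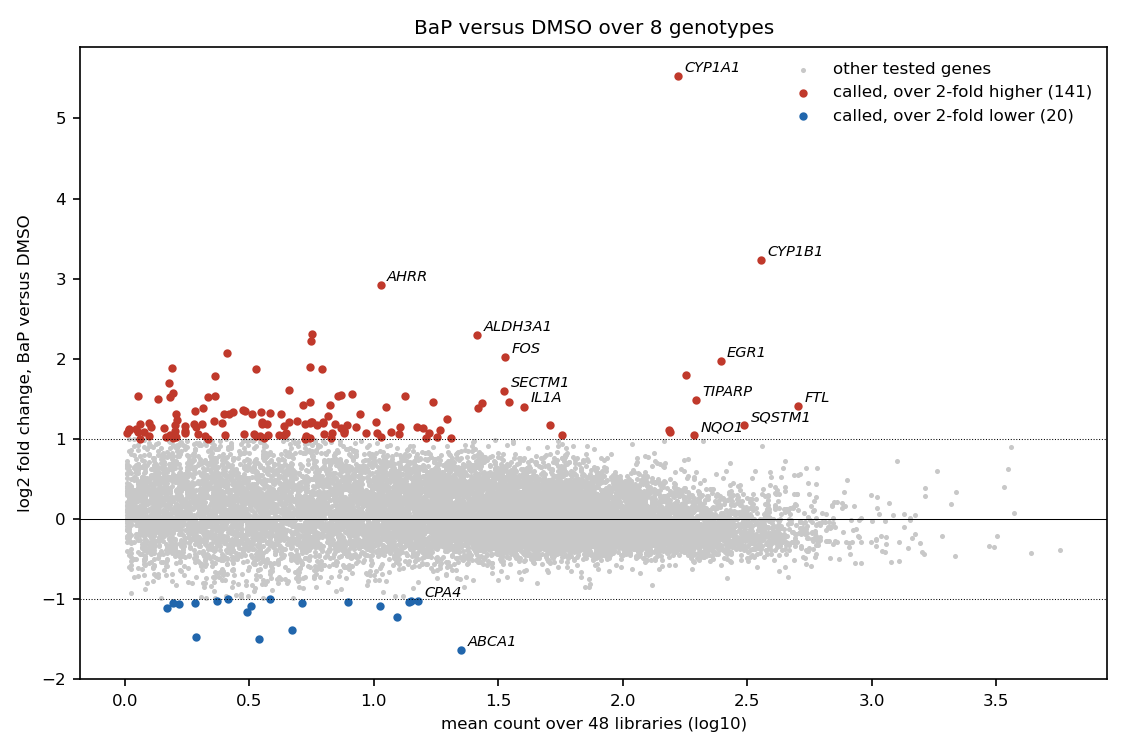
Log2 fold change of BaP against DMSO (vertical) by the mean count over the 48 libraries on a log10 scale (horizontal), 1 point per tested gene. Red points are the 141 genes called over 2-fold higher, blue points the 20 called over 2-fold lower, and dotted lines mark 2-fold; CYP1A1 and CYP1B1 stand above all others.

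Fold changes followed the GC content of the genes. Across the 13895 tested genes with a known exon GC content, the Spearman correlation of GC content with the log2 fold change was 0.72, a description over genes that share the same libraries. Of 10 equal groups of genes ordered by GC content, the lowest (median 37.1%) had a median log2 fold change of -0.24, and the highest (median 63.4%) had 0.50. In the lowest group 65.7% of genes were called lower and 1.37% higher, and in the highest group 0.144% were called lower and 77.8% higher. The genes over 2-fold higher had a median GC content of 59.5% and those over 2-fold lower had 43.7%, against 47.5% over all tested genes.

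The shift was present in each line and could be measured once per library. The read-weighted mean GC content was 47.55% ± 0.447 (SD, n = 24) in BaP libraries, between 46.79% and 48.26%. In DMSO libraries it was 46.32% ± 0.292 (SD, n = 24), between 45.57% and 46.86%. The difference of 1.24 percentage points had p = 1e-05 in the 2-sided permutation test within genotype, the smallest that 100000 resamples can give, and BaP was higher in 8 of 8 lines. Within the lines the Spearman correlation across genes lay between 0.428 (NRF2) and 0.587 (CDKN2A). Whether the shift came from the cells or from the libraries was not tested.

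A second fit therefore removed from each library the smooth trend of log2 level with exon GC content and exon length. From here on many values are given for both fits, as counted first. A single log2 fold change with no fit named is as counted. In that fit 1539 of 13895 genes were called higher (11.1%) and 1945 lower (14%). Counts of lists and families are read against these shares, and against 26.4% higher and 25.1% lower as counted. Over 2-fold, 57 genes rose (0.41%) and 19 fell (0.137%). Both fits called 56 of the same genes over 2-fold, 45 higher and 11 lower. Among genes called in both fits, 2282 had the same direction and 294 the opposite direction.

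**Figure D2:**
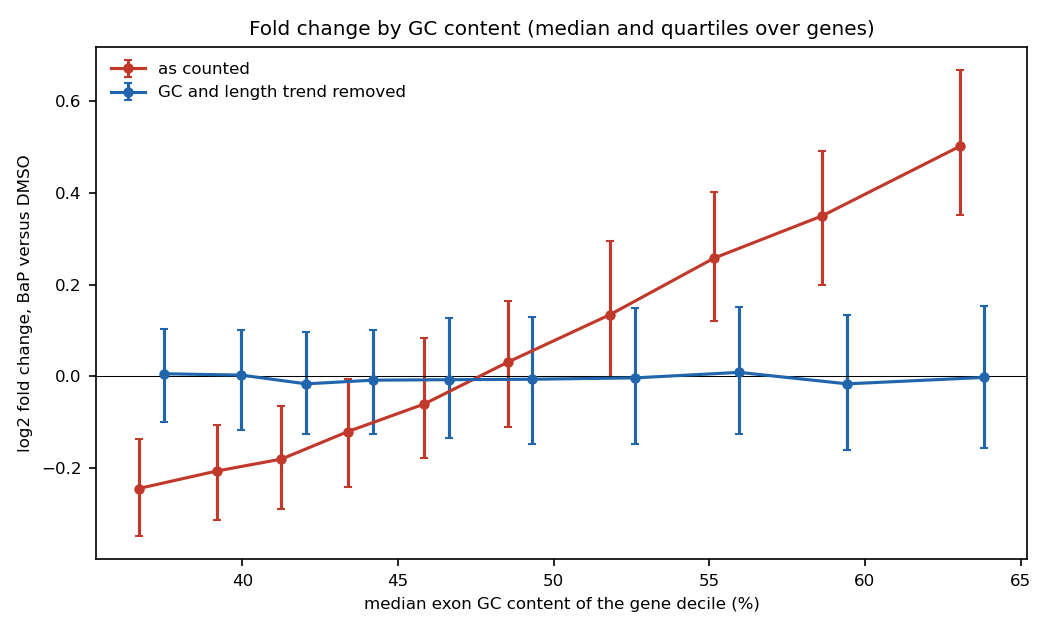
Log2 fold change of BaP against DMSO (vertical) for 10 groups of genes ordered by exon GC content (horizontal, median percent of each group). Points are medians and bars the quartiles over genes; as counted (red) the medians rise from -0.24 to 0.50, and with the trend removed (blue) they lie near 0.

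The largest rises were genes of AhR signalling. All 11 tested AhR target genes were called higher, against 26.4% of all tested genes, and 10 remained called with the trend removed, against 11.1%. Their median log2 fold change was 1.21 as counted and 1.34 with the trend removed. Leaving out any library or line kept at least 10 of them called. These targets are textbook responders and were listed with earlier results known.

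CYP1A1 (chr15:75011883-75017877 on GRCh37, minus strand), a monooxygenase that oxidizes polycyclic hydrocarbons, was near 0 in DMSO. It had 0 to 18.5 CPM (median 7.52) in the 24 DMSO libraries, CPM being reads scaled to a common library size after TMM normalization. BaP libraries held 104 to 837 CPM (median 362). Every BaP library was above every DMSO library. The log2 fold change was 5.53 (SE 0.17; 46.3-fold), with an adjusted p of 6.33e-49 by limma-voom, and 5.37 (SE 0.16) with the trend removed.

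CYP1B1 (chr2:38294116-38337044 on GRCh37, minus strand), its relative that forms reactive diol epoxides, had 43.5 to 114 CPM in DMSO (median 68.0). Under BaP it had 317 to 1046 CPM (median 690), again with no overlap. It rose by a log2 fold change of 3.23 (SE 0.06; 9.38-fold; adjusted p 2.91e-63 by limma-voom), and by 3.31 with the trend removed. Levels of both genes separated every library labelled BaP from every library labelled DMSO. TIPARP (chr3:156391024-156424559 on GRCh37, plus strand), an ADP-ribosyltransferase that dampens AhR, had 80.5 to 175 CPM in DMSO and 262 to 378 CPM under BaP. Its 2.79-fold rise (log2 1.48, SE 0.05) was smaller, and the ranges again did not overlap.

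AHRR (chr5:321829-438406 on GRCh37, plus strand), the AhR repressor, lay at 0 to 9.17 CPM in DMSO (median 1.999) and at 3.04 to 40.4 CPM under BaP (median 21.8). The ranges overlapped at the low end, where single reads decide the value, and the log2 fold change was 2.92 (SE 0.21). ALDH3A1, an aldehyde dehydrogenase, rose by 2.29 (SE 0.13), and by 1.87 with the trend removed. Its medians were 9.06 CPM in DMSO and 41.8 CPM under BaP. NQO1, a quinone reductase that AhR and NRF2 share as a target, rose 2.06-fold (log2 1.04, SE 0.05). SLC7A5, an amino acid transporter, rose by 0.60 as counted but by 0.17 with the trend removed. CYP2S1 was called only as counted (0.44, and 0.04 with the trend removed), and CYP1A2, the liver member of the family, was below the filter.

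**Figure D3:**
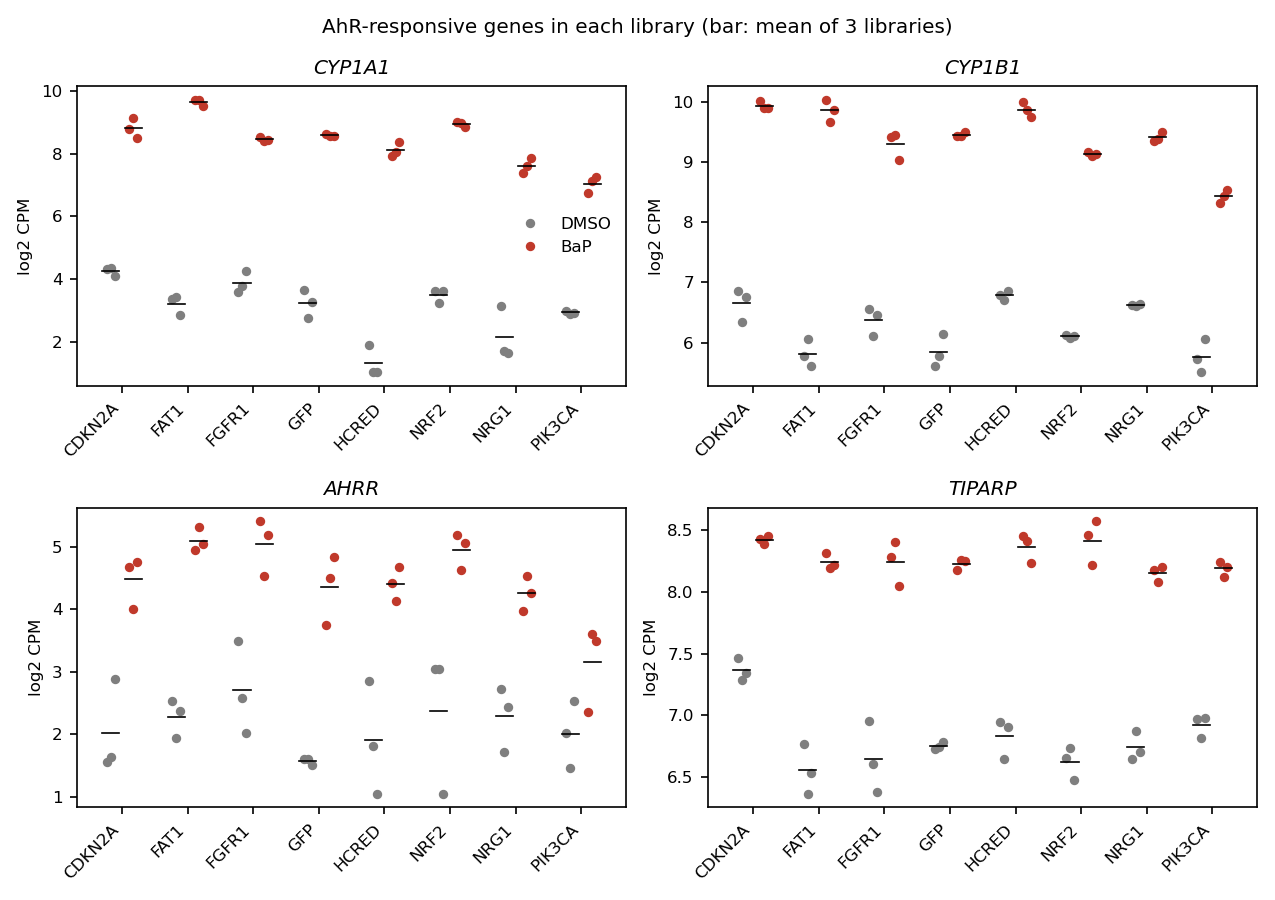
Level of 4 AhR-responsive genes in log2 CPM (vertical, prior count of 2) in every library of the 8 lines (horizontal), DMSO in grey and BaP in red, with a bar for the mean of 3 libraries. Ranges of CYP1A1, CYP1B1 and TIPARP do not overlap between treatments; for AHRR the lowest BaP library, in PIK3CA cells, reaches into the DMSO range.

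The promoters of 3 of these genes are shown because the receptor's core element can be read in them. Each runs from 250 bases before to 50 bases after the start of the gene, from RefSeq on GRCh38.p14, written 5′ to 3′ along the gene's strand. Capitals mark GCGTG or its reverse complement CACGC. CYP1A1 (chr15:74725479-74725778, minus strand) and AHRR (chr5:321464-321763, plus strand) each held 1 match, and TIPARP (chr3:156674340-156674639, plus strand) held 2. The promoter of CYP1B1 is named only.
CYP1A1: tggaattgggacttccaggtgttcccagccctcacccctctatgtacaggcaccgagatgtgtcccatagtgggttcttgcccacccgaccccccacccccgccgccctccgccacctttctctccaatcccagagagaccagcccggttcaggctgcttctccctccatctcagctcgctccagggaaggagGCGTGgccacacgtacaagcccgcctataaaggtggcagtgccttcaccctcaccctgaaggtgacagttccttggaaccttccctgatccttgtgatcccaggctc
AHRR: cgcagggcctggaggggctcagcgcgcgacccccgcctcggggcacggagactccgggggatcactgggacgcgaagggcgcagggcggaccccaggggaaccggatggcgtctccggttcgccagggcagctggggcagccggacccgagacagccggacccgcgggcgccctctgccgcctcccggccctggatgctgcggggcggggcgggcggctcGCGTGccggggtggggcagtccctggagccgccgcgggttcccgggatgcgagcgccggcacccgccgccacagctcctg
TIPARP: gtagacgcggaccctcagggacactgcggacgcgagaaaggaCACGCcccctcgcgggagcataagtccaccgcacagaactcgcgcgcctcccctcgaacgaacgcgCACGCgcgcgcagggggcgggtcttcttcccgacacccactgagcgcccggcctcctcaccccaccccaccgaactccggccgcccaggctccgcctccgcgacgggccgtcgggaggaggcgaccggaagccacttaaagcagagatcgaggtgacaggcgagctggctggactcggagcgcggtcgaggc

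The core GCGTG is common in GC-rich promoters and a match is no binding site. On either strand it occurred in 36.3% of all 27305 promoters of this length, in 50.1% of the 10703 promoters of tested genes that were matched and in 7 of the 9 matched promoters of AhR targets. Among the 91 matched promoters of genes over 2-fold higher it occurred in 38.5%, and among the 16 of genes over 2-fold lower in 18.8%. The antioxidant response element, searched as TGACNNNGC on both strands, occurred in 13.6% of all promoters, in 15.2% of promoters of tested genes and in 6 of the 18 matched NRF2 target promoters.

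The receptor and its chaperones did not follow its targets. Of 7 tested genes of the receptor complex, 1 was called higher and 3 lower in both fits, and the median log2 fold change was -0.04 as counted. AHR itself had a log2 fold change of -0.04 (SE 0.04) as counted and 0.15 with the trend removed, where it was called. ARNT, its partner, had -0.03 as counted. The chaperones HSP90AA1, HSP90AB1 and PTGES3 fell by 0.34, 0.23 and 0.23 on the log2 scale and were lower in both fits.

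Antioxidant genes regulated by NRF2 rose as a group. Of 25 tested, 23 were called higher and none lower in each fit, with a median log2 fold change of 0.71 as counted and 0.61 with the trend removed. NQO1, a member of the AhR list as well, was 1 of 6 that rose over 2-fold. FTL, the light chain of the iron store ferritin, had 138 to 650 CPM in DMSO (median 267) and 428 to 1826 CPM under BaP (median 678). Its log2 fold change was 1.41 (SE 0.03), and FTH1, the heavy chain, rose by 0.64. With the trend removed these values were 1.18 and 0.59. FTL has processed pseudogenes that could take part of its reads.

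TXNRD1, thioredoxin reductase, rose by 0.72 (SE 0.03), SRXN1, sulfiredoxin, by 0.98, and GCLC and GCLM, the subunits of the enzyme that starts glutathione synthesis, by 0.75 and 0.46. OSGIN1, an oxidative stress growth inhibitor, rose by 1.88 and HMOX1, heme oxygenase, by 1.002. The aldo-keto reductases AKR1C1, AKR1C2 and AKR1C3 rose by 1.32, 0.91 and 1.04, at mean counts between 3.81 and 6.10. They are close copies of each other, so the split between them is uncertain. SQSTM1, an autophagy receptor named here because of its rise, had 1.17 as counted and 0.82 with the trend removed.

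Enzymes of the pentose phosphate pathway, which supply NADPH, rose less, TKT by 0.55, TALDO1 by 0.38 and PGD by 0.28. With the trend removed they were called at 0.255, 0.19 and 0.115. SLC7A11, the cystine importer, and ME1, malic enzyme, moved the other way, from 0.18 in each case to 0.48 and 0.39. ABCC2, a conjugate exporter, was not called in either fit (0.10 as counted).

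Immediate early genes, the first transcripts of growth factor and stress signalling, and the feedback genes of ERK were all higher. Of 16 tested, 16 were called higher as counted and 15 with the trend removed, against 26.4% and 11.1% of all tested genes. The medians were 0.86 and 0.65. FOS, a subunit of AP-1, had 6.70 to 21.0 CPM in DMSO (median 15.2) and 16.8 to 110 CPM under BaP (median 60.1). EGR1, a zinc finger factor, had 22.3 to 246 CPM in DMSO (median 110.5) and 136 to 643 CPM under BaP (median 448). The log2 fold changes were 2.02 (SE 0.10) and 1.98 (SE 0.07), and the ranges of both genes overlapped between treatments. With the trend removed, FOS had 1.84 and EGR1 had 1.735. FOSL1, FOSB and JUN rose by 1.25, 1.31 and 0.91, and DUSP1, a phosphatase that ends MAP kinase signals, by 1.10. IER2 rose by 1.04 but by 0.59 with the trend removed. DUSP6, another MAP kinase phosphatase, had 0.40 and 0.44, and EGR3, which lost its call with the trend removed, had 0.71 and 0.47. In the GFP and HCRED lines alone 10 of the 16 were called higher as counted and 9 with the trend removed. Over all genes that smaller fit called 1326 of 14392 and 304 of 13895 higher.

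Secreted ligands of inflammation and of the EGF receptor were also higher. IL1A, an alarm cytokine of epithelium, had 9.62 to 41.4 CPM in DMSO (median 20.9) and 24.4 to 117 CPM under BaP (median 63.9), a log2 fold change of 1.40 (SE 0.09). IL1B rose by 1.06, and CXCL2 and CXCL8, neutrophil attractants, by 0.76 each at mean counts of 3.65 and 1.29. In all, 8 of 12 tested inflammatory genes were called higher and none lower in each fit. The shares of all tested genes called higher were 26.4% as counted and 11.1% with the trend removed. The median of the list was 0.57 as counted and 0.63 with the trend removed. Without the 10 small BaP libraries, 5 were called as counted and 4 with the trend removed. In the GFP and HCRED lines alone 3 were called in each fit, where 1326 of 14392 genes were higher as counted and 304 of 13895 with the trend removed.

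Of 8 tested ligands of the EGF receptor family, 5 were called higher and 1 lower in each fit. EPGN (epigen) rose by 1.53, AREG (amphiregulin) by 1.46 and EREG (epiregulin) by 0.82, with larger values of 1.75, 1.56 and 1.08 once the trend was removed. EPGN and AREG were at low counts, with means of 7.21 and 5.56. EREG is also among the AhR targets counted above. The 1 that fell was NRG1 (-0.35, SE 0.07), the gene overexpressed in a line of this series. Without the NRG1 line its value was -0.92, and in the GFP and HCRED lines alone it was -0.48 and not called.

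Interferon-stimulated genes were mixed as counted, with 8 of 20 tested called higher and 2 lower, against 26.4% and 25.1% of all genes. With the trend removed, 11 were higher and none lower, against 11.1% and 14%. Those named are IRF7 (1.01, and 0.40 with the trend removed), ISG15 (0.98 and 0.53), IFI6 (0.54 and 0.29) and IFIT1 (-0.34 and -0.19), of which IFI6 and IFIT1 lost their calls with the trend removed. In the GFP and HCRED lines alone, at most 1 of the 20 was called higher, with or without the trend. That fit called 1326 of 14392 genes higher as counted and 304 of 13895 with the trend removed.

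Mitotic genes fell together, by small amounts. Of 18 tested, 16 were called lower as counted and 17 with the trend removed, against 25.1% and 14% of all tested genes, and none was called higher. The medians were -0.39 and -0.32. Their median GC content of 43.4% lies on the side of the trend that was lower under BaP. CENPF, a kinetochore protein, went from a median of 1421 CPM in DMSO to 928 CPM under BaP. TOP2A, which untangles chromosomes, went from 1454 to 970 CPM. CENPF had a log2 fold change of -0.55 and TOP2A of -0.53 as counted, and -0.34 and -0.31 with the trend removed. ASPM, a spindle pole protein, fell by 0.59 and CCNB1, cyclin B1, by 0.33.

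DNA replication genes gave 4 called higher and 8 lower of 18 as counted, against 26.4% and 25.1% of all genes. Once the trend was removed, none was higher and 10 were lower, against 11.1% and 14%, with a median of -0.11. The genes higher as counted, CDT1, MCM2, MCM5 and E2F1, had 0.48, 0.37, 0.34 and 0.42, and none of them was called with the trend removed. TYMS, thymidylate synthase, had -0.38 and -0.49, and RRM2, a ribonucleotide reductase subunit, -0.27 and -0.30. MCM6, a helicase subunit, had -0.26 and -0.11.

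Among 25 targets of p53, the factor that DNA damage activates, 12 were called higher and 5 lower as counted. The shares over all genes were 26.4% and 25.1%. After removal of the trend 8 were called higher and 1 lower, against 11.1% and 14% of all genes, with a median of 0.08. CDKN1A, GDF15, TNFRSF10B, TP53I3 and DDB2 were called higher in both fits, and MDM2, TP53INP1 and SPATA18 with the trend removed alone. In the GFP and HCRED lines alone 5 were called higher as counted and 4 in the other fit, against 1326 of 14392 and 304 of 13895 genes. CDKN1A, the p21 inhibitor of the cell cycle, had 88.6 to 246 CPM in DMSO (median 141) and 179 to 535 CPM under BaP (median 264). It rose by 0.98 (SE 0.04) and by 0.65 with the trend removed. GDF15, a stress cytokine, rose by 1.55 at a mean count of 7.40, and by 1.16 with the trend removed. TP53I3, an oxidoreductase, rose by 0.50 and DDB2, a sensor of damaged DNA, by 0.42. MDM2, the negative regulator of p53, was 0.07 as counted and not called, and 0.29 and called with the trend removed. ZMAT3 fell by 0.38 as counted, and its call was lost with the trend removed.

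Genes that repair bulky adducts or copy past them showed no common direction as counted, with 6 of 18 higher and 6 lower. Those counts stand against 26.4% and 25.1% of all genes. After removal of the trend 7 were higher and 1 lower, against 11.1% and 14%, with a median of 0.05. XPA, which verifies the lesion, had -0.18, and REV3L and POLK, polymerases of lesion bypass, had -0.23 and -0.24. None of the 3 was called with the trend removed. DDB1, DDB2 and ERCC3 were called higher in both fits, and POLH was called lower in both (-0.22 and -0.17). ERCC6, ERCC8, POLI and REV1 were called higher with the trend removed alone.

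Of 11 tested heat shock genes, 2 were called higher and 7 lower as counted, and 10 lower and none higher with the trend removed. Of all tested genes 26.4% were higher and 25.1% lower as counted, and 11.1% and 14% with the trend removed. HSPA8, the constitutive HSP70, had -0.29 and -0.34, and HSPD1, the mitochondrial chaperonin, -0.33 and -0.18. The inducible HSPA1B was at a mean count of 1.90 and not called. HSPA1A was not tested, and its near-identical copy HSPA1B can share its reads. Outside the list, the inducible HSPA6 (1.57, and 1.23 with the trend removed) and the co-chaperone gene DNAJB3 (1.13 and 1.08) rose over 2-fold in both fits at mean counts of 1.56 and 1.10, and they are named after their values were seen.

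ATF4 targets, genes of the amino acid response, gave 12 of 17 higher and 2 lower as counted, and 8 and 2 with a median of 0.05 with the trend removed, against 11.1% of all genes higher and 14% lower in that fit. PPP1R15A, a phosphatase regulator, had 0.97 and 0.67, TRIB3, a pseudokinase, 0.77 and 0.37, STC2, a secreted glycoprotein, 0.53 and 0.42, and ATF3, a related factor, 0.50 and 0.42. DDIT4, an mTOR inhibitor, had 0.52 and 0.18, while ATF4 changed sign from 0.13 to -0.18. CEBPB had 0.71 and 0.16. Of 13 genes of the unfolded protein response, 4 were higher and 3 lower as counted, and 3 and 3 with the trend removed. For both lists the shares of all genes as counted were 26.4% higher and 25.1% lower. HSPA5, the main chaperone of the endoplasmic reticulum, had -0.14 and -0.03, SEL1L -0.38 and -0.16, SDF2L1 0.65 and 0.17, and DNAJC3 -0.23 and -0.03.

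Of 20 genes of cholesterol synthesis, 8 were higher and 6 lower as counted, and 4 and 3 with the trend removed. Over all genes the shares were 26.4% and 25.1% as counted, and 11.1% and 14% with the trend removed. DHCR7, the last reductase of the pathway, had 0.45 and 0.16, LSS 0.40 and 0.11, and HMGCS1 -0.06 and 0.14. Of 12 fatty acid and PPAR target genes, 4 were higher and 3 lower as counted, and 2 and 6 with the trend removed. SCD, the stearoyl-CoA desaturase, fell by 0.47 (SE 0.02) as counted and by 0.43 with the trend removed, and ACACA fell by 0.28 and 0.26. FASN, fatty acid synthase, changed sign from 0.27 to -0.30. ANGPTL4, a lipase inhibitor, rose by 1.43 at a mean count of 5.21, and by 1.01 with the trend removed.

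Basal cell genes, the identity of AALE cells, were detected at high counts, and KRT5 had a mean count of 3183. As counted 4 of 13 were higher and 8 lower, and with the trend removed 9 were lower and none higher (median -0.28). The shares over all genes were 26.4% higher and 25.1% lower as counted, and 11.1% and 14% with the trend removed. KRT14, a basal keratin, went from a median of 284 CPM in DMSO to 189 CPM under BaP, but its levels ranged from 35.9 to 712 CPM across the DMSO libraries. It fell by 0.74 (SE 0.05), and by 1.08 with the trend removed. ITGA6, DSC3 and the regulator TP63 had -0.48, -0.60 and -0.16, and TP63 had 0.002 with the trend removed.

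Cornified envelope genes, which mark squamous differentiation, were mostly not called: 1 of 13 was higher as counted, and 1 higher and 4 lower with the trend removed. All tested genes gave 26.4% higher and 25.1% lower as counted, and 11.1% and 14% with the trend removed. S100A9 had 0.44 and 0.26, SPRR1B -0.18 and -0.29, KRT13 0.50 and 0.20, and KRT16 -0.23 and -0.59. Of the markers of other cell types, COL1A1, a collagen chain, had 0.82 and 0.42, and DCN had 0.95 and 1.22 at a mean count of 1.25, both called in both fits. Their part in the other results was not tested.

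Metallothioneins gave 3 of 4 higher as counted and 1 with the trend removed (MT2A, 0.34 and 0.17), where MT1E had 0.22 and -0.08, MT1X 0.19 and 0.02, and MT1F 0.20 and -0.08. The lists here are read against 26.4% of all tested genes higher and 25.1% lower, and 11.1% and 14% with the trend removed. Hypoxia and glycolysis genes gave 7 of 16 higher and 3 lower, and 5 and 2 with the trend removed. Among them VEGFA had 0.57 and 0.35, NDRG1 0.59 and 0.41, SLC2A1 0.47 and 0.27, and LDHA -0.40 and -0.28. YAP and TGF-beta targets gave 4 of 12 higher and 2 lower, and 2 and 4 with the trend removed. TGFBI and CTGF had 0.49 and 0.59 as counted, and SKIL and PMEPA1 had -0.45 and -0.38. WNT and Notch genes gave 4 of 14 higher and 1 lower, and 1 and 5 with the trend removed. DKK1, a WNT inhibitor, fell by 0.85 and HES1, a Notch effector, rose by 0.84, while NOTCH1 changed sign (0.31 and -0.14) and LEF1 was not called (0.53). Matrix protease and plasminogen genes gave 5 of 8 higher and 1 lower, and 1 and 1 with the trend removed. SERPINB2, a plasminogen activator inhibitor that is also on the AhR list, had 1.21 and 1.34. TIMP1 had 0.27 and -0.01, MMP14 0.28 and -0.08, and SERPINE2 -0.34 and -0.25. TNFAIP3, the NF-kB inhibitor of the inflammatory list, had 0.43 and 0.42, and CSF3 1.04 and 0.66.

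**Figure D4:**
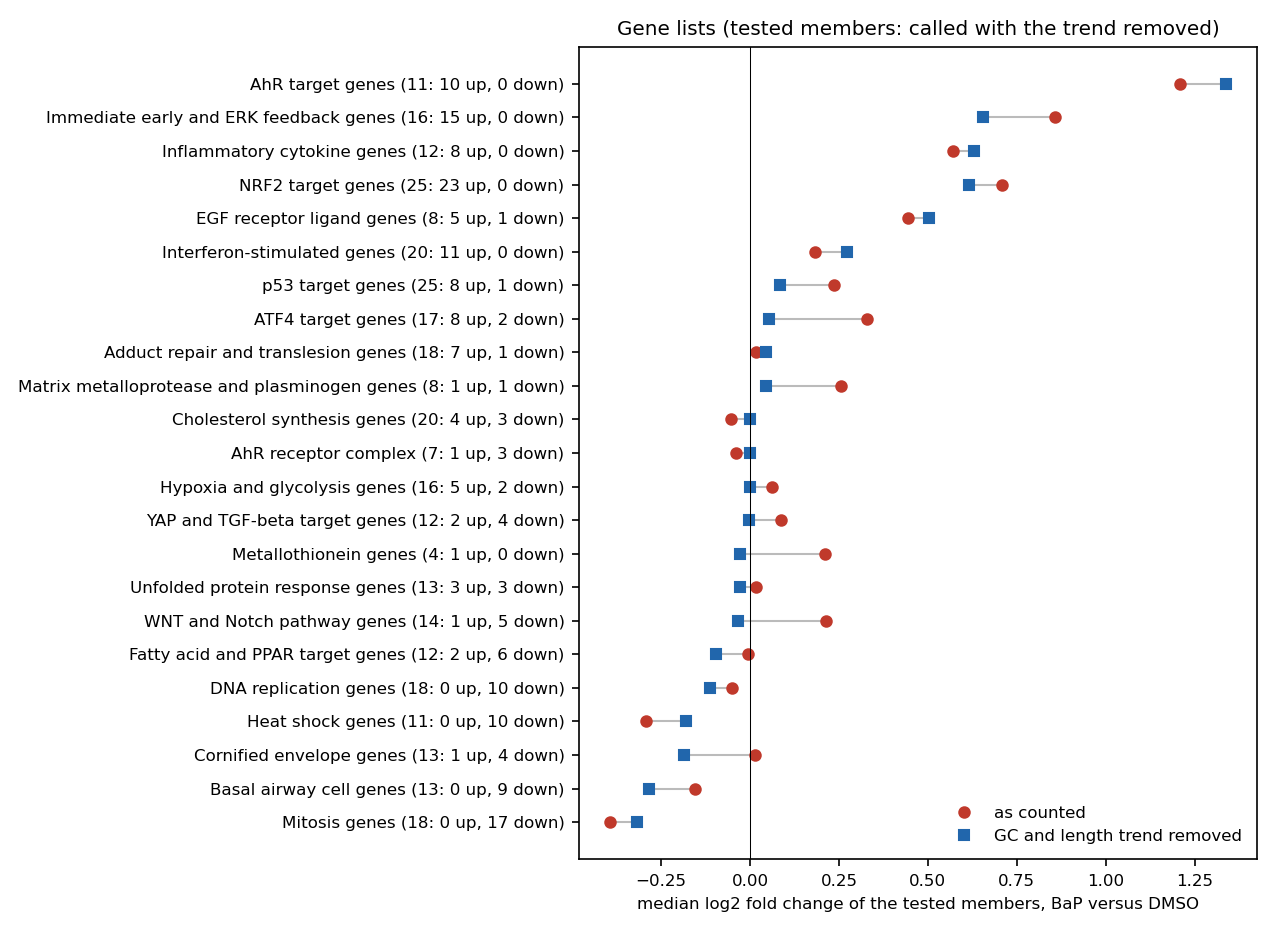
Median log2 fold change of the tested members (horizontal) for the 23 gene lists with at least 4 tested members, as counted (red circles) and with the GC and length trend removed (blue squares). Labels give the tested members and those called higher and lower with the trend removed; AhR targets lie at 1.21 and 1.34, and mitosis genes at -0.39 and -0.32.

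Besides the genes above, the 15 largest rises among genes averaging 10 or more reads took in SECTM1, MLXIPL, FOXQ1, ESPN and LOC101927751. SECTM1, a secreted and membrane protein, had 5.83 to 34.8 CPM in DMSO and 26.0 to 87.3 CPM under BaP, a log2 fold change of 1.60 (SE 0.10) and 1.10 with the trend removed. MLXIPL, the carbohydrate response factor, had 1.54 and 1.05. FOXQ1, a forkhead factor, had 1.46 and 0.98, ESPN, an actin bundling protein, 1.45 and 0.79, and LOC101927751, with no known GC content here, 1.44.

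Among genes averaging 10 or more reads, 6 fell over 2-fold. ABCA1, the transporter that exports cholesterol to apolipoprotein, was the largest, with 7.95 to 75.2 CPM in DMSO (median 28.7) and 0 to 32.4 CPM under BaP (median 8.34). It fell by 1.64 (SE 0.14) and was lower in all 8 lines, and it fell by 1.56 with the trend removed. CPA4, a carboxypeptidase, and LINC01355 each had -1.02, and AMOT, the angiomotin of Hippo signalling, had -1.04. AMOT was lower in 6 of 8 lines. LOC389831 and LOC730101 had -1.23 and -1.09 and no known GC content here. At lower counts, MUC16 (-1.50, mean count 3.46), FGF1 (-1.47, 1.94) and SOX6 (-1.39, 4.71) fell in both fits. These 3 were named for the size of their fall.

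Gene families of detoxification are read against 26.4% of all tested genes higher and 25.1% lower. Of 21 tested cytochrome P450 genes, 6 (28.6%) were higher and 2 lower as counted, a share of rises near that of all genes, with CYP4F11 (1.36) the third over 2-fold beside the CYP1 genes. Aldehyde dehydrogenases gave 6 of 15 higher and none lower, led by ALDH3A1 and ALDH1A3 (1.08). Aldo-keto reductases gave 6 of 8 higher, and glutathione transferases 7 of 14, with none lower in either family. The single tested UDP glucuronosyltransferase, UGT1A6, had 0.98, and its exons are partly shared with other UGT1A transcripts. In the second fit the same 4 larger families gave 4, 4, 4 and 6 higher and 1, 1, 0 and 1 lower. That fit called 11.1% of all genes higher and 14% lower. ABC transporters gave 11 of 29 higher and 8 lower, sulfotransferases 2 of 5 and 1, and solute carriers 81 of 231 and 50, which became 23 and 20.

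Of 437 tested ZNF zinc finger genes, 137 were lower and 64 higher as counted, and 42 and 13 of 436 with the trend removed. Over all tested genes 25.1% were lower and 26.4% higher as counted, and 14% and 11.1% with the trend removed. The ZNF falls thus did not exceed the share of all genes once the trend was removed. Of 62 clustered histone genes, 42 were higher and 3 lower, and 24 and 12 of the 56 with known GC content. Small nucleolar RNAs gave 53 of 200 higher and 3 lower, and 18 and 4 of 160. Histone and snoRNA genes have near-identical copies, and snoRNAs lie inside host genes, so their counts are uncertain.

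The next families are read against 26.4% of all tested genes higher and 25.1% lower, and 11.1% and 14% with the trend removed. Proteasome subunits gave 17 of 35 higher and 6 lower as counted, and 19 higher and 2 lower with the trend removed (median 0.14). Cytosolic ribosomal proteins gave 23 of 76 higher and 22 lower, and 18 and 27 with the trend removed. Mitochondrial ribosomal proteins gave 15 of 79 and 25, and 3 and 15. Respiratory chain genes gave 20 of 92 and 28, and 11 and 15. Keratins gave 2 of 17 each way and then 1 and 9, and collagen chains 6 of 25 each way and then 1 and 9. Long intergenic noncoding RNAs gave 14 of 132 higher and 11 lower, and microRNA hosts and precursors 8 of 53 each way.

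Whether the response differed between lines was tested by the interaction of BaP with genotype. It was called for 53 genes (0.368% of those tested) by the limma-voom F test. In 23 of them the NRF2 line had the lowest log2 fold change of the 8 lines. Without that line 18 genes were called, without the CDKN2A line 27, and without replicate 1 of NRG1 under BaP 95. This NRG1 library differed most from its replicates. The chi-square of counts per degree of freedom was 2.653 and 2.552, against a median of 1.33 over 48 replicate pairs. Of the 15 named genes called, CYP1A1, CYP1B1 and SCD kept the call in each of 56 fits that left out 1 library or 1 line. FAT2, a giant cadherin, had the smallest p. Its log2 fold change was -0.77 in NRF2 cells and lay between -0.17 and 0.25 in the other 7 lines, and without the NRF2 line its adjusted p was 0.117 by limma-voom. MYC, a growth-promoting transcription factor, rose by 1.60 in FAT1 knockout cells and had -0.04 in NRF2 cells, with an adjusted p of 0.053 by limma-voom without the NRF2 line. SCD and AHNAK, a scaffold protein, had negative log2 fold changes in each line, between -0.68 and -0.235 for SCD and between -0.70 and -0.305 for AHNAK. Without the NRF2 line the interaction of SCD was called and that of AHNAK was not (adjusted p 0.37 by limma-voom).

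Induction of the CYP1 genes differed in size and not in direction. CYP1B1 was induced most in FAT1 cells (4.14, SE 0.14) and least in PIK3CA cells (2.72, SE 0.15), and the NRG1 value (2.78, SE 0.12) was within its error of the latter. In FAT1 cells, the summed reads of 3 libraries were 2203 under BaP and 190 in DMSO. The adjusted p of the interaction was 5.35e-08 by limma-voom. For CYP1A1 the log2 fold change ranged from 4.40 (SE 0.39) in PIK3CA to 8.12 (SE 0.74) in HCRED, with an adjusted interaction p of 0.000209.

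The HCRED value of CYP1A1 rests on its DMSO libraries, which held 2 reads in all against 880 under BaP. The ratio scaled by library totals was 380, with an exact 95% counting interval of 105 to 3140. In PIK3CA cells 20 and 326 reads gave a ratio of 23.4 (14.9 to 38.8), and in FAT1 cells 26 and 1825 reads gave 110 (75.0 to 169). These intervals cover counting error only. EGR1 rose most in FAT1 cells (2.81) and least in NRG1 cells (1.56), and without the FAT1 line its interaction was not called (adjusted p 0.139 by limma-voom). TIPARP lay between 1.06 in CDKN2A and 1.81 in NRF2 cells, and its interaction was not called with the trend removed (adjusted p 0.0608 by limma-voom).

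**Figure D5:**
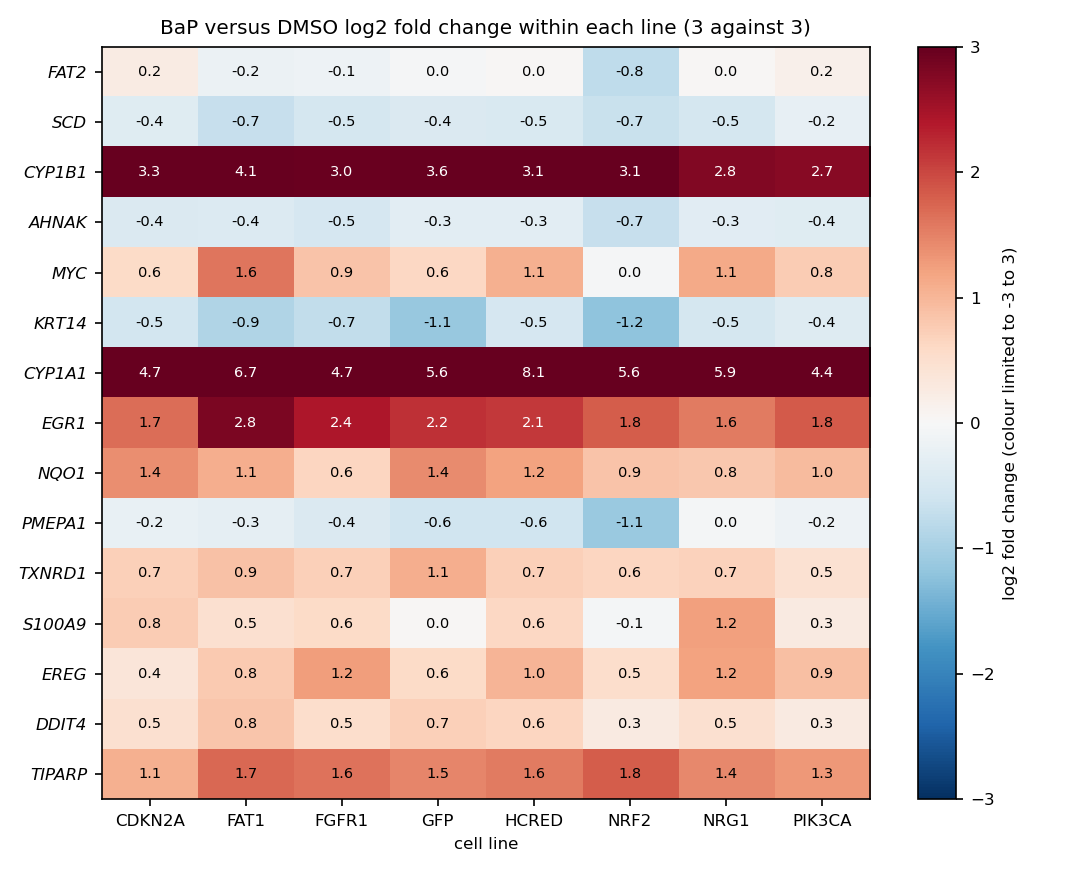
Log2 fold change of BaP against DMSO within each of the 8 lines (columns, 3 libraries against 3) for the 15 named genes whose response differed between lines (rows). Red is higher and blue lower under BaP, with colour limited to 3 either way; CYP1A1 and CYP1B1 are red in every line.

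BaP was also compared directly with the other carcinogens, 23 samples of cigarette smoke condensate (CSC) at 24 µg/ml and 24 samples of the nitrosamine NNK at 490 µM, in a fit of all 95 samples. The doses are not matched, so a difference is that of these treatments as given. It was called for 2376 of 14384 genes (16.5%) against CSC and for 1693 (11.8%) against NNK. CYP1A1 and CYP1B1 did not pass the test against CSC, with differences of -0.03 (SE 0.26) and -0.14 (SE 0.09) on the log2 scale, which does not show equal levels. They were higher under BaP than under NNK by 2.57 and 1.61. AHRR, TIPARP, ALDH3A1 and NQO1 were higher than under NNK by 1.26, 0.74, 1.16 and 0.65.

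Several genes that BaP raised were lower under BaP than under CSC. NQO1, FTL, DUSP1 and MYC were lower by 0.32, 0.32, 0.40 and 0.42 on the log2 scale. ABCA1, lower than in DMSO, was also lower than under CSC, with a difference of -3.78, and than under NNK, with -0.57. KRT14 was lower than under NNK (-0.67) and had -0.005 against CSC. FOS and EGR1 were lower than under NNK by 0.33 and 0.35, and their differences from CSC were -0.09 and 0.02.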

How the data were processed

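RNA of the 48 BaP and DMSO samples was profiled by single-end sequencing of a pooled library. Per the labels and the study's methods, the authors trimmed reads with cutadapt (version 1.12), checked them with FastQC (version 0.11.5), aligned them to hg19 with STAR (version 2.5.2b) and counted them over RefSeq genes with featureCounts, and deposited raw counts per gene. Whether counting used strand is not given in the sources used here.

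From these counts, genes with a mean count above 1 over the 48 libraries were kept, scaled by TMM in edgeR (version 4.0.16) and tested with voom in limma (version 3.58.1, R version 4.3.3). The fit had treatment and genotype as terms, and Benjamini-Hochberg adjusted p-values under 0.05 were called, with a 2-fold change as a second rule. The interaction of treatment and genotype was tested with an F test over the 16 groups. BaP was set against CSC and NNK in a fit of all 95 samples. Exon GC content and length came from GENCODE on GRCh37, matched for 25079 of 27978 symbols (770 through an older symbol). For the fits with the trend removed, a loess surface (span 0.3) of each library's deviation from the gene means on GC content and log10 exon length was subtracted on the log2 scale. Promoters came from RefSeq (GRCh38.p14). The fits were also run on simulated counts, drawn with a common spread for all genes. Where a GC trend was simulated, it was the same in every BaP library. In the real BaP libraries the slope of log2 CPM on GC content lay between -0.00284 and 0.02675. The simulation therefore cannot show how the fits handle trends that differ between libraries.

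The genes and lists were chosen with earlier results of these data known. Genes named by rule were CYP1A1 and CYP1B1, the 15 largest rises and up to 15 falls over 2-fold among genes averaging 10 or more reads, the first measured member of each list with up to 3 others of smallest p, the perturbed genes and the 5 genes of smallest interaction p. Some named genes are not reported here. Further list members and genes were chosen after their values were seen. Depth of 287446 to 1641129 reads limits what low genes can show. Alternatives included edgeR's quasi-likelihood test, DESeq2 (version 1.42.0), other filters and scalings, a replicate block, removal of the GC trend, thinning and leaving out each library or line. No 2 replicate libraries agreed within sampling noise.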

Additional observations from a re-analysis of the deposited data

Results flagged for a closer look

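The response to BaP differed between the 8 lines for 15 of the named genes, by the F test of the interaction of treatment and genotype (limma-voom, Benjamini-Hochberg adjusted over 14392 genes). The adjusted p was 4.198e-13 for FAT2, 9.666e-09 for SCD, 5.349e-08 for CYP1B1, 6.084e-08 for AHNAK and 3.376e-07 for MYC. It was 0.0001782 for KRT14, 0.0002094 for CYP1A1, 0.0006169 for EGR1, 0.004005 for NQO1 and 0.006127 for PMEPA1. It was 0.01623 for TXNRD1, 0.026 for S100A9, 0.03072 for EREG, 0.03707 for DDIT4 and 0.03728 for TIPARP. With the GC trend removed, the adjusted p was 0.1762 for S100A9, 0.127 for DDIT4 and 0.06082 for TIPARP, and the other 12 were still called. EREG was not called by edgeR's quasi-likelihood test. Over 56 fits that left out 1 library or 1 line, CYP1A1, CYP1B1 and SCD stayed called in each. FAT2, AHNAK and MYC lost the call in 1 fit, the one without the NRF2 line (adjusted p 0.1174, 0.3699 and 0.05298), and EGR1 in 1 fit (0.1394, without the FAT1 line). KRT14 and NQO1 lost it in 2 fits each, PMEPA1 in 3, S100A9 in 8, TXNRD1 in 9, EREG in 24, TIPARP in 29 and DDIT4 in 32. KRT14, a basal keratin, had its lowest log2 fold change in NRF2 cells (-1.22), and PMEPA1 had -1.10 there.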

How the results depend on the processing

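The count of genes called (7402) moved by less than 1.5 times in every fit other than those with the GC and length trend removed (3484), with the trend removed and a replicate block within genotype (3510), in GFP and HCRED cells alone (2642), thinned to the smallest library (4588), and with the trend removed and either the 10 small BaP libraries left out (2747) or GFP and HCRED cells alone (683). Without a low-count filter 63.2% of calls were higher, against 51.3%. For genes over 2-fold (161), the matching values were 76, 61 and 260, then 98 and 86, and a mean count of at least 10 gave 44. Calls over 2-fold were 217 by edgeR and 241 by DESeq2. The fits without small libraries, by library totals, and of GFP and HCRED cells with the trend removed were chosen after seeing the data.

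Same-numbered replicates showed at most weak pairing. Correlations of their deviations lay between -0.0638 and 0.1775 (median 0.03), over 0.1 in 3 of 24 pairs. A replicate block gave 7424 calls, 161 of them over 2-fold, and 71 interaction calls against 53 without it. Leaving out each library or line gave 6869 to 7457 calls, 155 to 190 over 2-fold, a GC difference of 1.205 to 1.271 points, and 18 (without the NRF2 line; 27 without the CDKN2A line) to 95 (without NRG1 BaP replicate 1) interaction calls. In these fits ATF4, IFIT1, MT1X, NFE2L2, PIK3CA and XPA lost their call at least once.

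Of 112 named genes, 57 kept their status, called or not, in every fit other than leaving out libraries or lines, with no change of direction counted. In some fit 16 changed direction, which was counted only where the main or the other fit called the gene. Uncalled values crossed 0 uncounted for MT1F (-0.106 to 0.352), SPRR1B (-0.412 to 0.165) and LEF1 (-0.189 to 0.637). With the GC trend removed, the reversed values were AHR 0.15, ATF4 -0.185, CDT1 -0.048, FASN -0.296, HMGCS1 0.139, MMP14 -0.084, MT1E -0.078, NFE2L2 0.032, NOTCH1 -0.144, PIK3CA 0.202, POLK 0.01, TIMP1 -0.009 and TP63 0.002. With the trend removed and the replicate block, the reversed values were AHR 0.161, ATF4 -0.195, CDT1 -0.042, FASN -0.293, HMGCS1 0.135, MMP14 -0.091, MT1E -0.108, NFE2L2 0.034, NOTCH1 -0.15, PIK3CA 0.202, POLK 0.011, TIMP1 0 and TP63 0.005. With the trend removed and small BaP libraries left out, the reversed values were AHR 0.145, ATF4 -0.151, CDT1 -0.049, FASN -0.303, HMGCS1 0.153, MMP14 -0.035, MT1E -0.011, NFE2L2 0.017, NOTCH1 -0.123, PIK3CA 0.186 and POLK 0.035. With the trend removed in GFP and HCRED cells alone, the reversed values were ATF4 -0.235, CDT1 -0.052, FASN -0.284, FGFR1 -0.197, MCM5 -0.002, MMP14 -0.138, NFE2L2 0.183, NOTCH1 -0.134, PIK3CA 0.313, SDF2L1 -0.494, TIMP1 -0.026 and TP63 0.04. In GFP and HCRED cells alone, the reversed values were FGFR1 -0.094, NFE2L2 0.027, PIK3CA 0.023 and SDF2L1 -0.119. The cause was not tested. Depth limits genes at low counts.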
